A study of Mus musculus with 6 samples.

Results

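Genes of sulfate conjugation and of sulfur amino acid metabolism were examined in the liver of mice that lack arylsulfatase B (ARSB), the lysosomal enzyme that takes 4-sulfate groups off chondroitin 4-sulfate and dermatan sulfate. The set holds 33 genes chosen by symbol, at a time when earlier results of these data were known. It covers the cytosolic sulfotransferases, the tyrosylprotein sulfotransferases, and the enzymes and transporters that handle cysteine, taurine, sulfide, sulfite and sulfate. Of the 33 genes, 31 were measured, among 19938 genes with a probe set that carries exactly 1 gene symbol. Each of the 31 was read by 1 probe set. Sult2a1 was named only on 2 probe sets that carry several symbols and Sts on none, so these 2 genes were not analysed here.

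Livers of 3 homozygous ARSB-null mice were compared with livers of 3 control mice, all male, 12 weeks old, on the C57BL/6J background and given no treatment, with 1 array per animal. Heterozygous deficient animals had been bought and bred to a homozygous colony. The controls were C57BL/6J mice that the sources do not describe as littermates, so genotype and colony cannot be told apart. The values are log2 signals, so a difference of 1 is a doubling, and each difference is the ARSB-null mean minus the control mean.

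In the liver, methionine sulfur passes by transsulfuration into cysteine, and cysteine is oxidized to taurine and sulfate or broken down with release of hydrogen sulfide. Sulfate is activated to 3'-phosphoadenosine 5'-phosphosulfate (PAPS), from which the cytosolic sulfotransferases sulfonate phenols, steroids, bile acids and drugs. Lysosomal sulfatases such as ARSB release sulfate from glycosaminoglycans, a further source of the anion.

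Arsb, the targeted gene, gave log2 signals of 7.63, 7.46 and 7.64 in ARSB-null livers, against 10.21, 10.23 and 10.21 in control livers, in the order of the mouse numbers 4, 5 and 6 that both groups carry. Its mean was 6.23-fold lower in ARSB-null livers (adjusted p = 0.000639 by limma), as the labels require. Array medians lay between 6.50 and 6.60, and any pair of arrays correlated at 0.976 to 0.993 across probe sets. Of 35556 probe sets, 7 passed an adjusted p of 0.05, 2 of them higher and 5 lower in ARSB-null livers. Of the hepatocyte markers, 4 of 5 were measured, and their summed linear signal was 63158 to 65932 in ARSB-null livers and 58970 to 63432 in control livers.

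None of the 31 genes passed the adjusted threshold in the ARSB-null livers. The widest differences were in Sult5a1, a cytosolic sulfotransferase gene, with a 1.60-fold lower mean in ARSB-null livers, in Csad, which makes the taurine precursor hypotaurine, with a 1.47-fold lower mean, and in Sult1a1, the main phenol sulfotransferase, with a 1.30-fold higher mean. The count was 0 of 31 by limma, where 0.0197% of all probe sets passed (0.00562% higher and 0.0141% lower). It was also 0 of 31 by an analysis of variance of each probe set alone. At an unadjusted p under 0.05, limma gave 3 of 31 genes (9.68%), 1 higher and 2 lower, against 5.94% of all probe sets (2.75% higher and 3.19% lower). The median difference over the 31 genes was 0.03, against -0.01 over all probe sets with 1 symbol, and 18 genes had higher means in ARSB-null livers and 13 had lower ones. With array medians centred, these counts were 17 and 14. For 28 of the 31 genes the 95% interval of the difference lay within 1.5-fold in either direction. Each value comes from whole liver, where fewer cells of a type and less RNA per cell cannot be told apart.

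**Figure D1:**
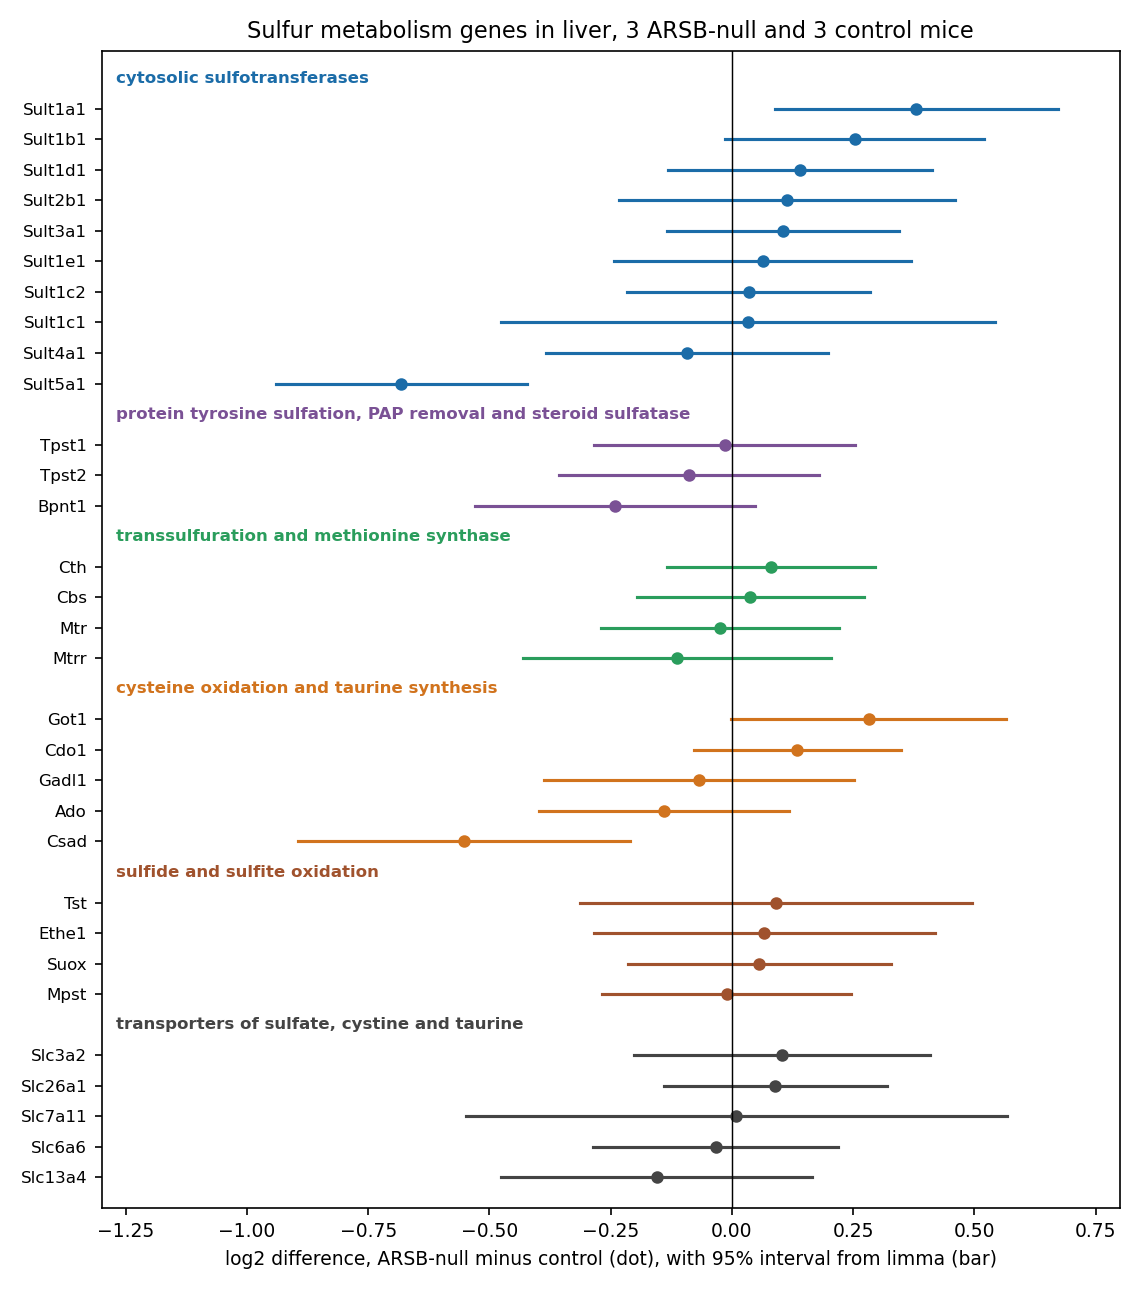
Log2 difference between ARSB-null and control livers (x axis; dot, ARSB-null minus control; bar, 95% interval from limma) for the 31 measured genes, grouped by role. Only the intervals of Sult5a1, Csad and Sult1a1 lie clear of 0, and none of the 31 genes passed the adjusted threshold.

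Among the cytosolic sulfotransferases, Sult5a1 had the lowest p of the whole set. Its log2 signal was 7.13, 7.13 and 7.33 in ARSB-null livers 4, 5 and 6, against 7.96, 7.90 and 7.78 in control livers 4, 5 and 6. Every ARSB-null liver lay below every control liver, with a gap of 0.44 between the groups. The means were 7.20 ± 0.12 in ARSB-null and 7.88 ± 0.10 in control livers (SD, n = 3 each), a log2 difference of -0.68 with a standard error of 0.11 and an interval of -0.94 to -0.42 (adjusted p = 0.236 by limma). With only the probe sets of 1 symbol tested, of which 0.275% passed (0.151% lower), Sult5a1 passed as well (adjusted p = 0.0457 by limma). With mouse number as a block the adjusted p was 0.348, and over all alternatives it ranged from 0.0457 to 0.767.

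Sult1a1, which sulfonates phenols and many drugs, had signals of 11.07, 10.93 and 11.30 in ARSB-null livers and 10.75, 10.76 and 10.64 in control livers. The groups did not overlap, and ARSB-null liver 6 was the highest of all 6. The log2 difference was 0.38 with a standard error of 0.12 (interval 0.09 to 0.67, adjusted p = 0.728 by limma). The difference was 0.28 without ARSB-null mouse 6, 0.34 without control mouse 6 and 0.41 without both mice numbered 4, and in each of these cases the unadjusted p by limma was above 0.05.

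Sult1b1, which acts on phenols and thyroid hormones, gave 8.91, 9.09 and 8.79 in ARSB-null livers and 8.62, 8.74 and 8.67 in control livers. The groups lay 0.05 apart, with ARSB-null above. Its difference of 0.25 had a standard error of 0.11 and an adjusted p of 0.847 by limma. With mouse number as a block its unadjusted p was under 0.05, which brings the genes with a higher mean at an unadjusted p under 0.05 to 2.

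Sult1d1, which in the mouse takes catecholamines as substrates, gave 11.28, 11.53 and 11.56 in ARSB-null livers and 11.26, 11.40 and 11.29 in control livers. The groups overlapped because ARSB-null liver 4 lay among the controls (difference 0.14, adjusted p = 0.977 by limma). Sult3a1, an amine sulfotransferase that is female-predominant in mouse liver, gave 3.59, 3.62 and 3.80 in these male ARSB-null livers and 3.56, 3.54 and 3.59 in control livers. ARSB-null liver 4 cleared the highest control by only 0.0022 on the log2 scale. The difference of 0.10 had an adjusted p of 0.985 by limma.

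Of the other 5 sulfotransferases, the estrogen sulfotransferase Sult1e1 differed by 0.06, Sult2b1, which acts on cholesterol and pregnenolone, by 0.11, Sult1c2 by 0.03, Sult1c1 by 0.03 and the brain-expressed Sult4a1 by -0.09. All 5 overlapped between the groups. In Sult1c1 control liver 4 stood at 4.91, against 4.04 and 4.37 in the other controls, while the ARSB-null livers spanned 4.41 to 4.58. In all, 8 of the 10 measured cytosolic sulfotransferases had higher means in ARSB-null livers and 2 lower ones. Their median difference was 0.08, and 5 of the 10 lay below the median signal. The split was the same with array medians centred, but Sult1c1 and Sult1c2 then differed by only 0.0008 and 0.0025. Over the alternatives, Sult1c1, Sult1c2 and Sult1e1 changed sign 3, 2 and 1 times.

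**Figure D2:**
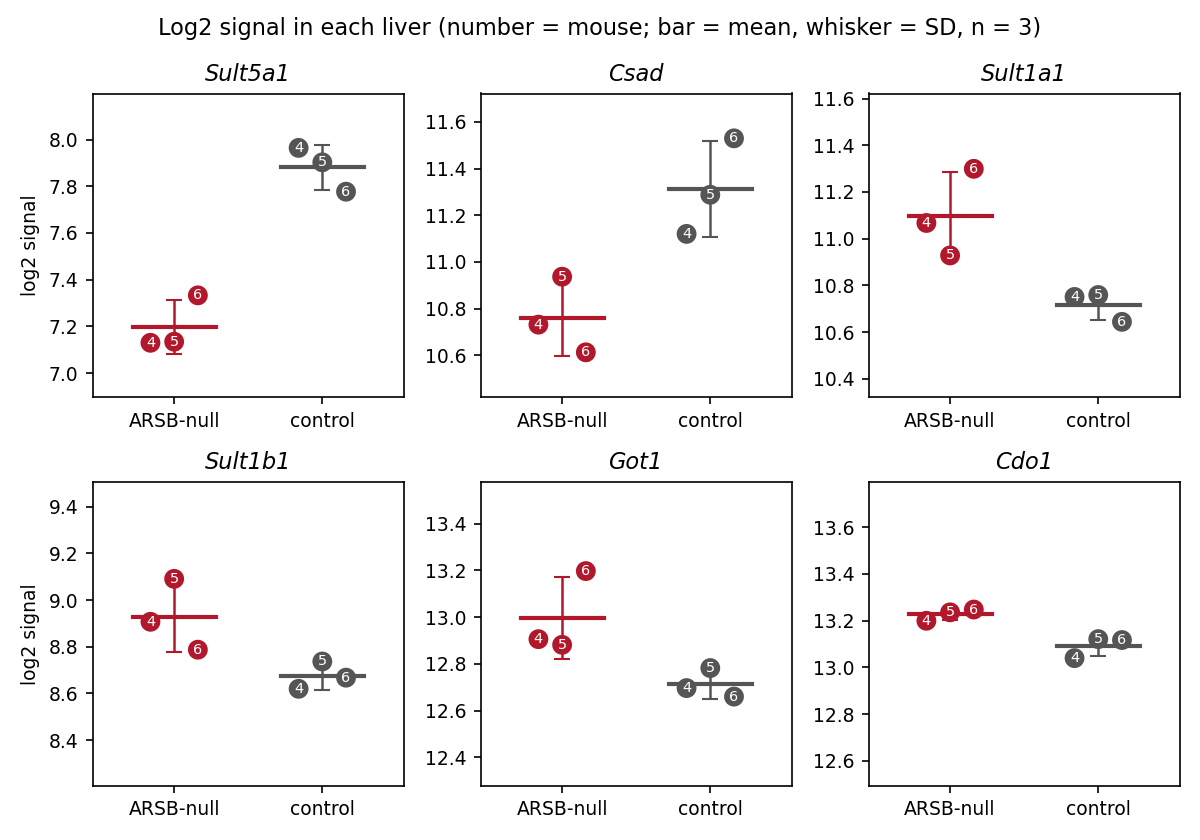
Log2 signal (y axis, the same span in every panel but a different start) of 6 genes in each ARSB-null and control liver; each circle is a mouse with its number, bars are means and whiskers SD (n = 3). The panels show the 6 measured genes of the set whose groups do not overlap and lie at least 0.02 apart. The lack of overlap in every panel therefore follows from the choice of genes. The groups overlapped for 23 of the measured genes. Among the 6 panels the gap is widest for Sult5a1 at 0.44 and narrowest for Sult1b1 at 0.05.

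Next to the sulfotransferases stands Bpnt1, the phosphatase that removes 3'-phosphoadenosine 5'-phosphate, the by-product left after sulfonate transfer. It gave 10.59, 10.88 and 10.62 in ARSB-null livers and 11.07, 10.87 and 10.87 in control livers. ARSB-null livers 4 and 6 were the lowest of all 6, but ARSB-null liver 5 lay among the controls. Its difference was -0.24 with a standard error of 0.12 (adjusted p = 0.897 by limma). Tpst1 and Tpst2, the Golgi enzymes that sulfate tyrosines of secreted and membrane proteins, differed by -0.02 and -0.09. For Tpst2 the 3 ARSB-null livers lay within 9.43 to 9.44, whereas the control livers spanned 9.33 to 9.62.

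Cysteine oxidation and taurine synthesis held the second widest difference. Csad, cysteine sulfinic acid decarboxylase, gave 10.73, 10.94 and 10.61 in ARSB-null livers and 11.12, 11.29 and 11.53 in control livers. All ARSB-null livers lay below all control livers, with ARSB-null liver 6 lowest and control liver 6 highest. Means were 10.76 ± 0.16 in ARSB-null and 11.31 ± 0.21 in control livers (SD, n = 3 each), a difference of -0.55 with a standard error of 0.14 and an interval of -0.89 to -0.21 (adjusted p = 0.570 by limma). When each array was left out in turn, the difference ranged from -0.65 to -0.44.

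Got1, the cytosolic aspartate aminotransferase, which also transaminates cysteine sulfinate and so competes with Csad for its substrate, had a mean on the other side. Its signals were 12.91, 12.88 and 13.20 in ARSB-null livers and 12.70, 12.78 and 12.66 in control livers. The groups did not overlap, and ARSB-null liver 6 again stood highest (difference 0.28, standard error 0.12, adjusted p = 0.840 by limma). Without ARSB-null mouse 6 the difference was 0.18.

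Cdo1, cysteine dioxygenase, which makes cysteine sulfinate, gave 13.20, 13.24 and 13.25 in ARSB-null livers and 13.04, 13.12 and 13.12 in control livers. The groups did not overlap, and the standard error of 0.09 was the lowest of the set, with SDs of 0.025 in ARSB-null and 0.046 in control livers. The difference of 0.14 was under an unadjusted p of 0.05 by the analysis of variance of this gene alone, and above it by limma, which draws the spread of each gene towards that of all probe sets. The adjusted p was 0.577 by the analysis of variance and 0.962 by limma.

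Ado, the dioxygenase that turns cysteamine into hypotaurine, gave 8.36, 8.45 and 8.48 in ARSB-null livers and 8.71, 8.56 and 8.44 in control livers. Control liver 6 lay among the ARSB-null livers (difference -0.14, adjusted p = 0.976 by limma). Gadl1, a decarboxylase related to Csad, differed by -0.07 with overlap. Means in ARSB-null livers were thus higher for 2 of these 5 genes and lower for 3, with array medians centred or not.

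In transsulfuration, Cth, cystathionine gamma-lyase, gave 12.59, 12.55 and 12.63 in ARSB-null livers and 12.49, 12.55 and 12.49 in control livers. The groups met at mouse 5 of each, 0.0016 apart in the direction of overlap (difference 0.08, adjusted p = 0.989 by limma). Cbs, cystathionine beta-synthase, the entry enzyme, differed by 0.04. Mtrr, the reductase that keeps methionine synthase active, gave 6.91, 6.86 and 6.94 in ARSB-null livers and 6.88, 7.28 and 6.89 in control livers. Control liver 5 alone stood apart from the other livers. The difference was -0.11 (adjusted p = 0.989 by limma), and without control mouse 5 it was 0.02. Mtr, methionine synthase itself, differed by -0.02.

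Sulfide and sulfite oxidation showed no separation in any gene. Mpst, mercaptopyruvate sulfurtransferase, differed by -0.01, Tst, the thiosulfate sulfurtransferase rhodanese, by 0.09, the persulfide dioxygenase Ethe1 by 0.07 and sulfite oxidase, Suox, by 0.06. Tst spread more among the ARSB-null livers, at 10.67, 10.21 and 10.75, than among the control livers, at 10.32, 10.63 and 10.41. ARSB-null liver 5 was the lowest of all 6 for both sulfurtransferases, Tst and Mpst, and control liver 4 the lowest for Ethe1 and Suox.

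Among the transporters, Slc26a1, the sulfate anion exchanger of the hepatocyte membrane, gave 10.67, 10.66 and 10.73 in ARSB-null livers and 10.50, 10.66 and 10.64 in control livers. ARSB-null liver 5 exceeded control liver 5 by 7e-04, so the groups were separate in name only (difference 0.09, adjusted p = 0.989 by limma). Slc13a4, a sodium-coupled sulfate carrier, gave 5.97, 5.87 and 5.72 in ARSB-null livers and 6.22, 5.83 and 5.98 in control livers, with overlap (difference -0.16, adjusted p = 0.981 by limma).

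Slc7a11, the cystine-glutamate exchanger xCT, differed by 0.01 but had the widest interval of the set, -0.55 to 0.57. Control liver 4 stood at 5.03, against 4.11 and 4.27 in the other controls and 4.42 to 4.55 in the ARSB-null livers. Slc7a11 lay below the median signal. Across the probe sets with 1 symbol, control liver 4 held the highest control value in 50%. Without control mouse 4 the difference of Slc7a11 was 0.29, at an unadjusted p under 0.05 by limma. Its heavy chain Slc3a2 differed by 0.10, and Slc6a6, the taurine transporter, by -0.03, each with overlap. With array medians centred, the difference of Slc7a11 was below 0, so that 2 of the 5 transporters had a higher mean in ARSB-null livers, against 3 as deposited.

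The groups did not overlap for 8 of the 31 genes (25.8%), 6 with ARSB-null above and 2 below, against 11.9% of all probe sets (5.14% above and 6.78% below). An exact two-sided permutation test gave p = 0.1 for each of the 8 genes, the smallest value that 3 against 3 animals allow. For 2 of them, Sult3a1 and Slc26a1, the gap was under 0.02. The other 6 genes cleared that gap, as did 9.81% of all probe sets. Differences beyond 0.5 in size were held by 2 genes (6.45%), against 1.5% of the probe sets with 1 symbol, and 25 genes lay within 0.2 of no difference. The 17 genes outside the 14 with the smallest p had differences of -0.09 to 0.11 and adjusted p of 0.992 or more by limma, and each of their intervals lay within 1.5-fold. Standard errors ran from 0.09 to 0.24 with a median of 0.11.

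Within a group, the highest values were not spread evenly over the livers. ARSB-null liver 6 held the highest ARSB-null value in 19 of the 31 genes (61.3%), where 26.6% of the probe sets with 1 symbol had their highest ARSB-null value in that liver. Control liver 5 held the highest control value in 17 genes (54.8%), against 27.9% of the probe sets with 1 symbol. Control liver 4 held it in 10 genes (32.3%), against 50% of those probe sets, so the spread over all genes was uneven too. Compared by mouse number, 9 genes were higher and 2 lower in the ARSB-null animal of all 3 pairs, which makes 35.5%, against 32.2% of all probe sets with all 3 pairs in the same direction.

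**Figure D3:**
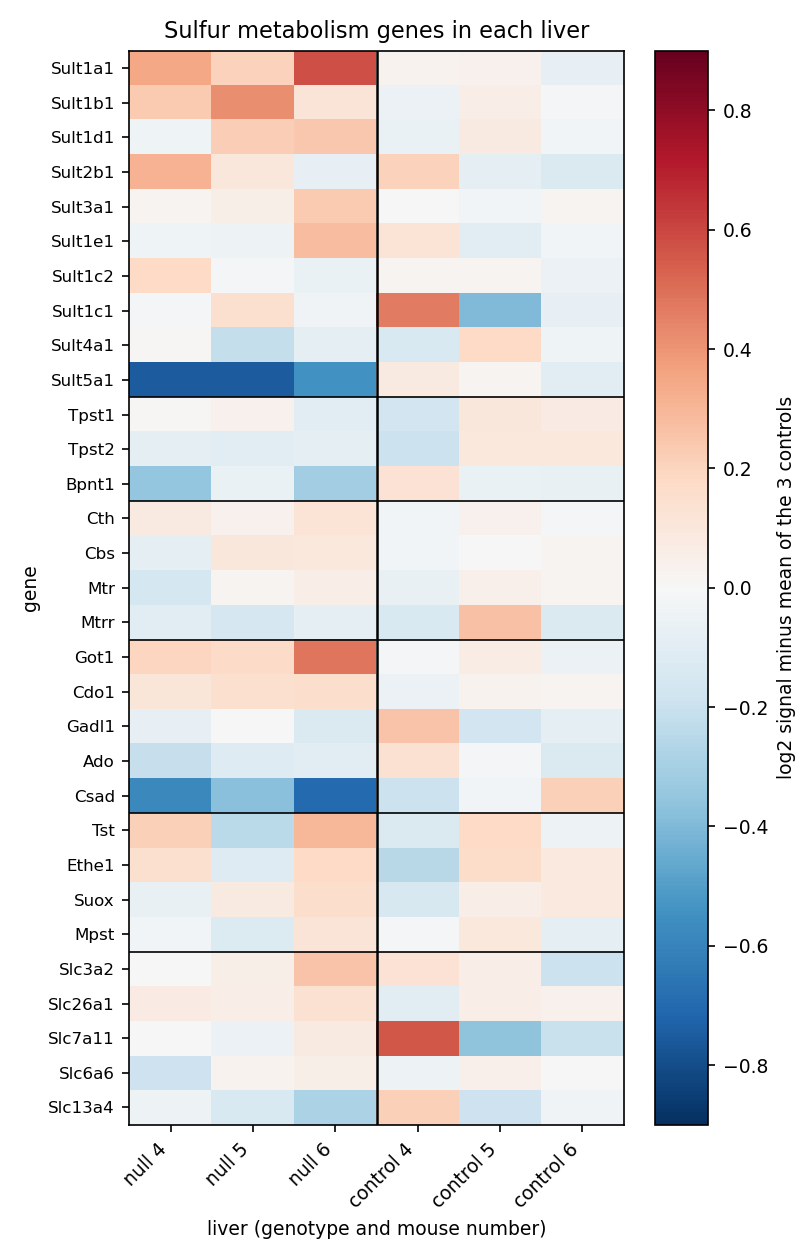
Log2 signal of the 31 genes in each liver minus the mean of the 3 control livers (colour; red above, blue below), with ARSB-null livers left of the vertical line, control livers right of it and horizontal lines between roles. Sult5a1 and Csad are below the control mean in all 3 ARSB-null livers, Sult1a1 and Got1 above it, and control liver 4 stands out for Slc7a11 and Sult1c1.

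The rest of the pathway was followed through 5 further lists, of which 59 of 73 genes were measured. Again 0 genes passed the adjusted threshold by limma in either direction, and at an unadjusted p under 0.05 there were 0 higher and 5 lower (8.47%, against 5.94% of all probe sets). Their median difference was -0.10, with 18 higher and 41 lower means in ARSB-null livers, or 12 and 47 with array medians centred. The groups did not overlap for 10 of the 59 genes (16.9%), 1 with ARSB-null above and 9 below, against 11.9% of all probe sets (5.14% above and 6.78% below).

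Among genes next to sulfide and taurine metabolism (16 of 19 measured, median -0.13, 5 higher and 11 lower means), Slc3a1, the subunit that brings the cystine transporter to the membrane, differed most. Its signal was 10.12, 10.25 and 10.34 in ARSB-null livers and 11.32, 11.40 and 10.99 in control livers. The groups lay well apart, and the mean was 2.01-fold lower in ARSB-null livers (difference -1.00, standard error 0.14, adjusted p = 0.195 by limma). With only probe sets of 1 symbol tested the adjusted p was 0.0208, and with mouse number as a block it was 0.348 by limma. Slc16a6, a monocarboxylate carrier family member reported to carry taurine, differed by -0.46 (adjusted p = 0.709 by limma), Mocs1, of molybdenum cofactor synthesis, by -0.20 and Selenbp1, a methanethiol oxidase, by -0.23.

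PAPS synthesis and sulfate transport (12 of 13 measured) had 5 higher and 7 lower means in ARSB-null livers, or 2 and 10 with array medians centred, with a median of -0.05. In this list the anion exchanger Slc26a6 gave 6.25, 6.31 and 6.23 in ARSB-null livers and 6.69, 6.65 and 6.55 in control livers, without overlap (difference -0.37, adjusted p = 0.568 by limma). The sulfate cotransporter Slc13a1, known from kidney and gut, differed by -0.24 (adjusted p = 0.794 by limma) at a low signal of 4.43 to 4.70. Papss1, a PAPS synthase, differed by -0.22, and Sumf1, which activates sulfatases, ARSB among them, by -0.23, both with overlap.

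Of the further sulfotransferases 6 of 11 were measured, with 1 higher and 5 lower means in ARSB-null livers and a median of -0.10. The 4 with the smallest p were Sult2a6 at -0.22, Sult3a2 at 0.26, Sult6b1 at -0.21 and Sult6b2 at -0.14, with adjusted p of 0.895 to 0.987 by limma. In this list 5 of the 6 genes lay below the median signal, these 4 among them. Sult2a8, the 1 above it, differed by -0.06, with means of 12.00 in ARSB-null and 12.06 in control livers. The Sult2a and Sult3a genes of the mouse are close copies, so their probe sets may read more than 1 transcript.

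The methionine cycle (12 of 16 measured) had 4 higher and 8 lower means and a median of -0.07. Ahcyl2, a relative of S-adenosylhomocysteine hydrolase, gave 8.64, 9.06 and 8.90 in ARSB-null livers and 9.54, 9.35 and 9.27 in control livers, again without overlap (difference -0.52, adjusted p = 0.599 by limma). Mtap, of methionine salvage, differed by -0.28, the methyltransferase Bhmt2 by -0.14 and Gnmt, glycine N-methyltransferase, by 0.12. In glutathione synthesis and use (13 of 14 measured) 3 means were higher and 10 lower, with a median of -0.11. No gene reached an unadjusted p of 0.05 in the main fit. With mouse number as a block Dpep1 did (unadjusted p = 0.0282 by limma). Gclc, the catalytic subunit of the first step of glutathione synthesis, differed by -0.14, Dpep1 by 0.33, Chac2 by -0.23 and Ggct by -0.17.

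**Figure D4:**
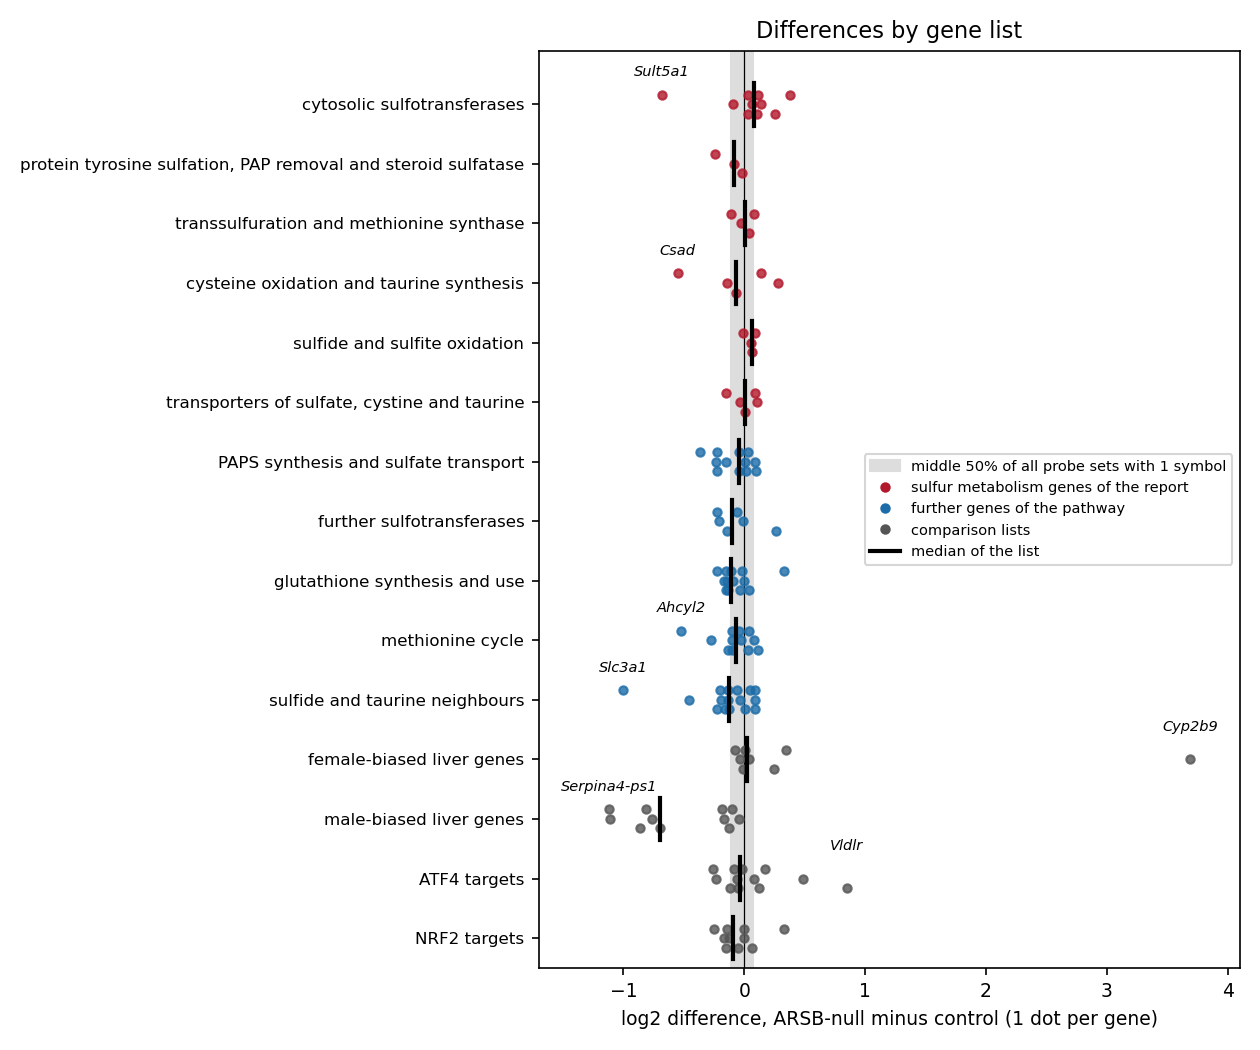
Log2 difference, ARSB-null minus control (x axis), of each gene (dot) by list, with the list's median as a black line, for the 31 genes (red), the further pathway lists (blue) and comparison lists of liver genes (grey); the grey band is the middle 50% of all probe sets with 1 symbol, -0.11 to 0.08. Among the red and blue dots, Slc3a1 at -1.00, Sult5a1 at -0.68, Csad at -0.55 and Ahcyl2 at -0.52 lie farthest from 0, and male-biased genes have the lowest median at -0.70.

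Other gene groups of the liver were read beside these values. Of 12 male-biased liver genes 11 were measured, all 11 with a lower mean in ARSB-null livers (median -0.70). Their summed linear signal was 28689 to 43094 in ARSB-null livers and 43898 to 54198 in control livers. In 4 of the 11 (36.4%) every ARSB-null liver lay below every control liver, against 6.78% of all probe sets. Cyp4a12a and Cyp4a12b are among these 4 and had close signals in every liver. Whether their probe sets read separate transcripts was not tested. The lower means of Hsd3b5, Slco1a1 and Mup21 rested on ARSB-null liver 6 alone. Hsd3b5, for example, gave 12.56, 12.65 and 11.19 in ARSB-null livers and 11.97, 12.38 and 12.43 in control livers. Cyp7b1, an oxysterol hydroxylase, differed by -1.11 (adjusted p = 0.356 by limma), Cyp4a12b by -0.76 and Cyp4a12a by -0.82. Female-biased liver genes (8 of 12 measured) had a median of 0.02, with 5 higher and 3 lower means, or 4 and 4 with array medians centred, and Cyp2b9 differed by 3.69 (adjusted p = 0.400 by limma).

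Erythroid markers, of which 2 of 5 were measured, had a summed signal of 1134 to 1453 in ARSB-null livers and 2295 to 2687 in control livers. Slc4a1, the red cell anion exchanger, differed by -1.56 and Alas2, the erythroid heme synthesis enzyme, by -0.81 (adjusted p = 0.224 and 0.237 by limma). With only probe sets of 1 symbol tested, both passed (adjusted p = 0.0208 for Slc4a1 and 0.0407 for Alas2 by limma). All 5 measured neutrophil markers had lower means, with differences from -0.50 to -0.01, and all 5 lay below the median signal. Their summed signal was 188 to 207 in ARSB-null livers and 212 to 243 in control livers. Macrophage markers (6 of 6 measured) summed to 4126 to 4366 in ARSB-null livers and 3736 to 4832 in control livers, with Cd68 at 0.53, Adgre1 at -0.35 and Csf1r at -0.33. The medians of the other lists were 0.07 for endothelial, 0.11 for stellate, -0.05 for cholangiocyte, -0.03 for T and NK cell and -0.40 for B cell markers, and no marker of any list passed the adjusted threshold by limma over all probe sets. The part of these groups in the values of Sult5a1, Csad, Slc3a1 and the other genes was not tested.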

How the data were processed

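Liver RNA of 6 mice was hybridized to mouse gene arrays, 1 array per animal. The authors normalized by quantiles and deposited log2 signals, 1 per probe set and array; RMA and Partek appear in the submitters' processing notes, with no version. Quantile normalization removes a shift shared by most genes, and no detection calls were used, so the number of arrays limits the precision. The paper gives a Mouse Gene ST array of the second generation, but the row identifiers match GEO's annotation of the first. The labels give ketamine and xylazine before cervical dislocation, the paper carbon dioxide. No genome build is named, so no coordinates are given.

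Of 35556 probe sets, 21789 had 1 symbol, 1621 several and 12146 none in the annotation used, and 0 symbols changed on update. Shares given over all probe sets include those with several symbols or none, whereas every listed gene was read by a probe set with 1 symbol. The brightest 1-symbol probe set by mean over all arrays stood for a gene. Groups were compared by limma 3.58.1 in R 4.3.3 (lmFit, eBayes; two-sided; Benjamini-Hochberg over all probe sets, threshold 0.05). The procedure was tested on simulated data. That check required recovery only for changes of 2 or more on the log2 scale, larger than the difference of any gene of the set. Summed signals are sums of 2 to the power of the log2 signal. Levels were not compared between probe sets.

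The genes, lists and alternatives were chosen with earlier results of these data known. Values in every liver are given for the 14 genes with the smallest p and any without overlap; up to 4 genes are named per pathway list and 3 per comparison or marker list, by p. Any other gene named from those lists, such as Hsd3b5, and liver values of any other gene, such as Tst, were picked after its values were seen.

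Deviations from the group means correlated at 0.396, 0.159 and 0.193 between the animals numbered 4, 5 and 6, all over 0.1. Results with the number as a block are therefore given for the 31 genes where they change a call. In the other lists they are given only for some genes. Sult3a2 and Sesn2, for example, fell under an unadjusted p of 0.05 with the block (0.0438 and 0.0348 by limma). Csf1r rose above it (0.0799 by limma). Animals of unlike number correlated at -0.325 to 0.220. The highest of these, ARSB-null 6 with control 5, exceeded the matched values of numbers 5 and 6. What the numbers share is not given in the labels. Alternatives were this block, 1-symbol probe sets only, analysis of variance (which the methods name), a trended robust prior, array weights, centred medians, a filter at the median signal, a threshold of 0.10 and arrays left out. The table held 0 value columns of no sample.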

Additional observations from a re-analysis of the deposited data

How the results depend on the processing

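No alternative reversed a call. Among the 31 genes, 0 had a higher mean past the adjusted threshold under any alternative, and 1 had a lower mean past it, Sult5a1, in 2 alternatives: with only 1-symbol probe sets tested (adjusted p = 0.0457 by limma) and with these and the replicate block together (0.0470; chosen after seeing the data). With only 1-symbol probe sets tested, Slc3a1 (0.0208) and the erythroid markers Slc4a1 (0.0208) and Alas2 (0.0407) passed as well. Fewer probe sets enter these fits, and they also change the shared spread; the cause was not tested further. Sult5a1 and Csad stayed under an unadjusted p of 0.05 with a lower mean in every alternative, joined by Bpnt1 without ARSB-null mouse 5. The 1 gene with a higher mean there (Sult1a1) became 2 with the replicate block (Sult1b1 added) and 2 by the analysis of variance (Cdo1 added). It became 3 with 1-symbol probe sets, array weights, the filter at the median signal or 1-symbol probe sets with the block (Sult1b1 and Got1 added). The number was 4 with the trended robust prior and 0 without both arrays numbered 4. Leaving out 1 array gave 0 to 2, with 0 without control mouse 6 and only Sult1b1 without ARSB-null mouse 6. Slc7a11 joined Sult1a1 without control mouse 4, and Got1 joined it without ARSB-null mouse 5.

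Over all probe sets, the 2 with a higher and 5 with a lower signal became 1 and 3 with the replicate block, 27 and 33 with 1-symbol probe sets, 43 and 63 with these and the block, 1 and 1 by the analysis of variance, 14 and 14 with array weights and 8 and 8 at an adjusted p under 0.10. The number higher was 1 with centred medians and 5 above the median signal. Without both arrays numbered 4 the counts were 1 and 0, and leaving out 1 array gave 1 higher each time and 3 to 6 lower. Arsb, at -2.67 without both arrays numbered 4, then had an adjusted p of 0.0534 by limma. Of 457 values of single genes under alternatives, 425 kept direction and call, 2 gained a call and 30, in 13 genes with a difference of at most 0.11 in size, changed sign without a call. Each of the 31 genes had 1 probe set, so other probe sets of these genes could not be tried. Arsb had 2 probe sets with 1 symbol, and only the brighter was read.

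Signal limits some values: 8 of the 31 genes lay below the median signal, Sult3a1 and Sult1e1 lowest. The smallest half-width of a 95% interval was 0.21 in the fit by limma over all probe sets with 3 animals a group.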

Other observations

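Lists of genes that respond to amino acid shortage and to electrophiles were read beside the sulfur genes, since Slc7a11, Cth and Slc3a2 are known members of such responses. All 12 targets of ATF4, the factor of the integrated stress response, were measured. Their median difference was -0.04, with 5 higher and 7 lower means in ARSB-null livers. Vldlr, a lipoprotein receptor, gave 7.14, 7.56 and 7.69 in ARSB-null livers and 6.66, 6.68 and 6.51 in control livers, without overlap (difference 0.85, adjusted p = 0.348 by limma). Trib3, a pseudokinase, gave 7.72, 7.42 and 7.49 in ARSB-null livers and 7.18, 7.07 and 6.91 in control livers, also without overlap (difference 0.49, adjusted p = 0.568 by limma). Sesn2 differed by -0.26.

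Of 11 targets of NRF2, the factor that answers electrophiles, 10 were measured, with 2 higher and 8 lower means in ARSB-null livers and a median of -0.09. Hmox1, heme oxygenase 1, gave 8.84, 8.91 and 8.98 in ARSB-null livers and 8.51, 8.68 and 8.56 in control livers (difference 0.33, adjusted p = 0.670 by limma). Ces2g, a carboxylesterase, differed by -0.25 and Nqo1, a quinone reductase, by -0.17, and no gene of either list passed the adjusted threshold.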
